A study of Drosophila melanogaster with 2 samples.

Results

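The vacuolar ATPase genes of Drosophila melanogaster were taken as the protein-coding genes whose symbol starts with Vha followed by a letter or digit. There were 33 such genes among 13968 protein-coding genes on the chromosome arms, with 13 in the V1 sector, 18 in the V0 sector and 2 for the accessory protein Ac45. They were assigned by symbol to 14 subunits, of which 9 had at least 2 genes and 5 had a single gene. Binding of CG13287, a Drosophila protein studied here as a transcription factor, was measured at these genes by chromatin immunoprecipitation followed by sequencing. The chromatin came from whole embryos of strain CG13287-GFP, aged 6 to 24 h, which carried an inserted CG13287-eGFP transgene. An antibody against GFP recovered the tagged protein, so binding by untagged protein was not seen; the promoter that drives the transgene is not stated in the labels. The samples formed 1 group of 2 biological replicates, and sonication gave fragments of 200 to 800 bp. No other genotype, stage or treatment was compared, and a control experiment named in the labels was not analysed here. Whole embryos mix many cell types, so fewer bound cells and less binding per cell cannot be told apart.

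The vacuolar ATPase is a rotary pump that acidifies endosomes, lysosomes and synaptic vesicles, and that energises transport across the plasma membrane of some epithelia. Its V1 sector, on the cytoplasmic side, hydrolyses ATP and turns a central shaft. The shaft drives a ring of c subunits in the membrane-embedded V0 sector, and protons pass between the ring and subunit a. In flies several subunits are encoded by more than 1 gene, with 1 broadly used copy and others restricted to particular tissues such as the testis.

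The deposited peak lists gave, for each peak, an interval, a summit, a signal on the scale of the authors' peak caller and a score. A score of 830 corresponds to an irreproducible discovery rate (IDR) of 0.01 and was the lowest score in each of the 4 filtered lists. These were a conservative and an optimal list made from both replicates, and 1 list for each replicate. A longer ranked list accompanied each of them. Bound genes were those with a summit no more than 500 bp from any of their annotated transcription start sites (TSSs), and the signal given is that of the strongest such summit. The conservative list had 5955 peaks with a median signal of 178, replicate 1 had 3997 peaks on the chromosome arms and replicate 2 had 7340. Without read counts, sequencing depth cannot be given, and signals of different lists are only set side by side.

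The contrast between paralogs of 1 subunit was widest for the c ring, and sequences at these genes are shown first. Vha16-5 had the highest signal of all the V-ATPase genes, whereas its paralogs Vha16-2 and Vha16-3, neighbours on arm 3L, had no entry near a TSS in any of the 8 lists. The summit at Vha16-5 lay 275 bp upstream of its TSS and only 27 bp from the start of CG12299, on the opposite strand. The peak does not show which of these genes it belongs to, so the contrast may not be one of c subunit promoters. The summit was beyond the promoter stretch of 250 bases before to 50 after the TSS, so the 101 bases around it are given as well. All sequences are from the Release 6 genome (dm6), read 5′ to 3′ on the strand of the gene. Capitals mark matches, on either strand, to the 9 short motifs listed with the motif counts.
Vha16-5 summit (chr2L:10737268-10737368, minus strand): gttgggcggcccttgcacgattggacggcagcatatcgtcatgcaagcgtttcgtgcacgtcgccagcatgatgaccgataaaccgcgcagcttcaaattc
Vha16-5 promoter (chr2L:10736994-10737293, minus strand): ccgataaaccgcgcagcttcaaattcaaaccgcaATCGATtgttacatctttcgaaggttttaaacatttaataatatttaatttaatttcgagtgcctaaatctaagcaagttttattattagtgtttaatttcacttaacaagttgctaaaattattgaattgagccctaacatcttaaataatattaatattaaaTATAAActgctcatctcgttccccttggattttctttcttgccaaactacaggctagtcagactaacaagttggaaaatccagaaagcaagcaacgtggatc
Vha16-2 promoter (chr3L:11474708-11475007, plus strand): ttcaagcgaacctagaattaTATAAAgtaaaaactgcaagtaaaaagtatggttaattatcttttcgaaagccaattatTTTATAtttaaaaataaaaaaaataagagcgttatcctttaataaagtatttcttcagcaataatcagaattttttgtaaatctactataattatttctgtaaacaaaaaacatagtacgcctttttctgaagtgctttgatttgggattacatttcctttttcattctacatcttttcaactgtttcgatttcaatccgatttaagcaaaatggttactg
Vha16-3 promoter (chr3L:11473041-11473340, plus strand): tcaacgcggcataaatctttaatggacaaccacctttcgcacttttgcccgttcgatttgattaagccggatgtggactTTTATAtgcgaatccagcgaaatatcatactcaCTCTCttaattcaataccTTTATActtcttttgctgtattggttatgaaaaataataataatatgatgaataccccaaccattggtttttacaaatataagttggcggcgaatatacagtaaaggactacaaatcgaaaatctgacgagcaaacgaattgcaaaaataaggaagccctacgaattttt
The summit window of Vha16-5 had none of the searched motifs, and its promoter held ATCGAT, centred 213.5 bp upstream of the TSS, and TATAAA, centred 49.5 bp upstream. The promoters shown for Vha16-2 and Vha16-3 held the TATAAA letters, in places on the other strand, and no match to ATCGAT. That of Vha16-3, at the first of its 2 TSSs, also held GAGAG on the other strand. Its promoter at the second TSS, not shown, held CAGCTG and CANCNCTA as well, and no ATCGAT.

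The promoter of VhaSFD, which had the third highest signal, follows by the rule on signal. The gene encodes subunit H, which in yeast brakes ATP hydrolysis by free V1. It holds a match to TATCGATA, the DNA replication-related element (DRE). The windows of 101 bases around the summits of Vha68-2 and VhaAC39-1 are shown for the core of that element, ATCGAT. These 2 were chosen after their values were seen.
VhaSFD promoter (chr2L:16727777-16728076, minus strand): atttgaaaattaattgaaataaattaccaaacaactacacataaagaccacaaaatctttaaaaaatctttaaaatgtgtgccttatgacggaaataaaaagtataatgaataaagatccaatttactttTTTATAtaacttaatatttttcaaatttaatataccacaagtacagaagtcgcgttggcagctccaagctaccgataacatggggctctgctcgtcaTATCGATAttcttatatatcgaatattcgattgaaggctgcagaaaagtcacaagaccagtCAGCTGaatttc
Vha68-2 summit (chr2L:12974199-12974299, plus strand): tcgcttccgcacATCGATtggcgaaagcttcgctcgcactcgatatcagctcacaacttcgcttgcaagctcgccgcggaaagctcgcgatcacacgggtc
VhaAC39-1 summit (chrX:3880763-3880863, plus strand): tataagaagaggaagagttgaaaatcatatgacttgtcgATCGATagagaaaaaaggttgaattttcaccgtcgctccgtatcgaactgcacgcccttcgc
At VhaSFD the centre of TATCGATA lay 19.5 bp upstream of the TSS and 2.5 bp upstream of the summit. The core was centred 35.5 bp upstream of the summit at Vha68-2 and 8.5 bp upstream of it at VhaAC39-1.

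Of the 33 V-ATPase genes, 16 (48.5%, 95% interval 30.8 to 66.5) were bound in the conservative list, against 39.8% of all protein-coding genes. In the optimal list 17 (51.5%) were bound, against 43.7%. Replicate 1 gave 12 (36.4%, 20.4 to 54.9), against 30.3%, and replicate 2 gave 18 (54.5%, 36.4 to 71.9), against 44.9%. In the longer ranked list behind the conservative one, 22 (66.7%) had a summit, against 60.7%. In each of these 5 lists the share of V-ATPase genes was somewhat above that of all genes, and the background share lay inside the interval for the V-ATPase genes. The intervals are exact Clopper-Pearson intervals and cover counting error only. No test was made, because the samples formed 1 group.

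**Figure D1:**
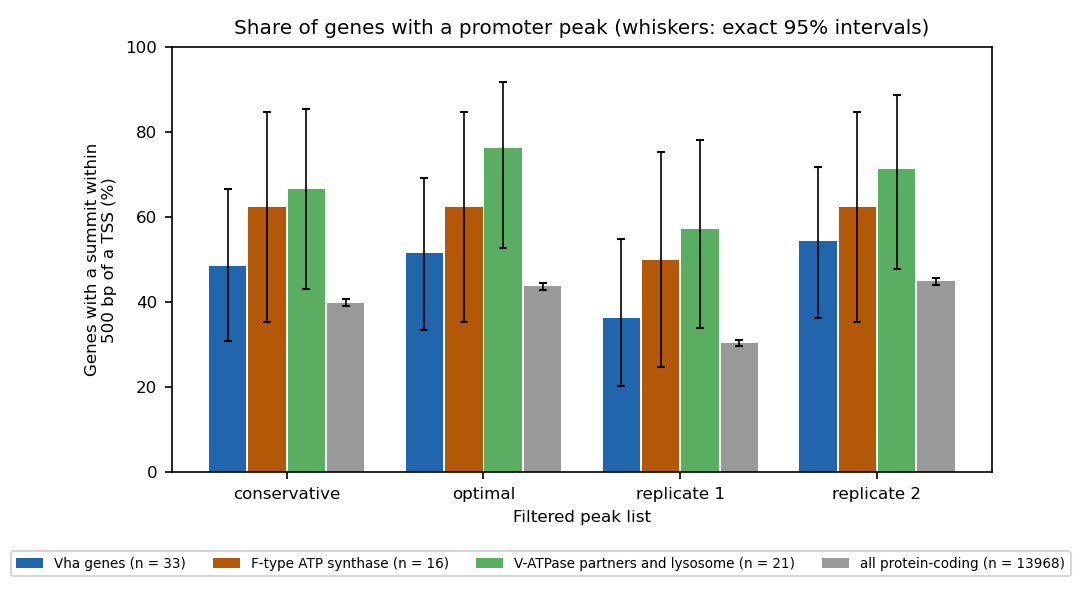
Share of genes (%, vertical axis) with a summit within 500 bp of a TSS in each of the 4 filtered lists (horizontal axis), for the V-ATPase genes, the F-type ATP synthase genes, a list of V-ATPase partners and lysosome genes, and all protein-coding genes. Whiskers are exact 95% intervals; in the conservative list the V-ATPase genes stood at 48.5% and all genes at 39.8%.

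Binding was spread over both sectors. In the conservative list 7 of the 13 V1 genes (53.8%, 25.1 to 80.8) and 8 of the 18 V0 genes (44.4%, 21.5 to 69.2) were bound, and VhaAC45 was bound of the 2 accessory genes. At least 1 gene was bound for 12 of the 14 subunits, the exceptions being B and F. Of the 9 subunits with paralogs, 8 had both a bound and an unbound gene, and 4 of the 5 subunits with a single gene were bound. Subunits A, c and e had more than 1 bound gene. Of the 28 genes in subunits with paralogs, 12 (42.9%) were bound, close to the 39.8% of all protein-coding genes, so the mixture of bound and unbound paralogs is described here and not read as a pattern of the family.

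The members that were bound in 1 list were mostly bound in the others. There were 11 V-ATPase genes bound in all 4 filtered lists, as were 29.4% of all protein-coding genes. The 12 genes bound in replicate 1 were all bound in replicate 2. A further 6 genes passed in replicate 2 and not in replicate 1, namely Vha100-1, Vha100-2, Vha14-1, Vha44, VhaAC39-1 and VhaAC45, and 0 passed the other way round. Over all protein-coding genes 2123 passed in replicate 2 only and 96 in replicate 1 only, so the direction was that of the lists as a whole. Each of these 6 genes had an entry in the ranked list of replicate 1, at signals between 33.3 and 50.8.

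**Figure D2:**
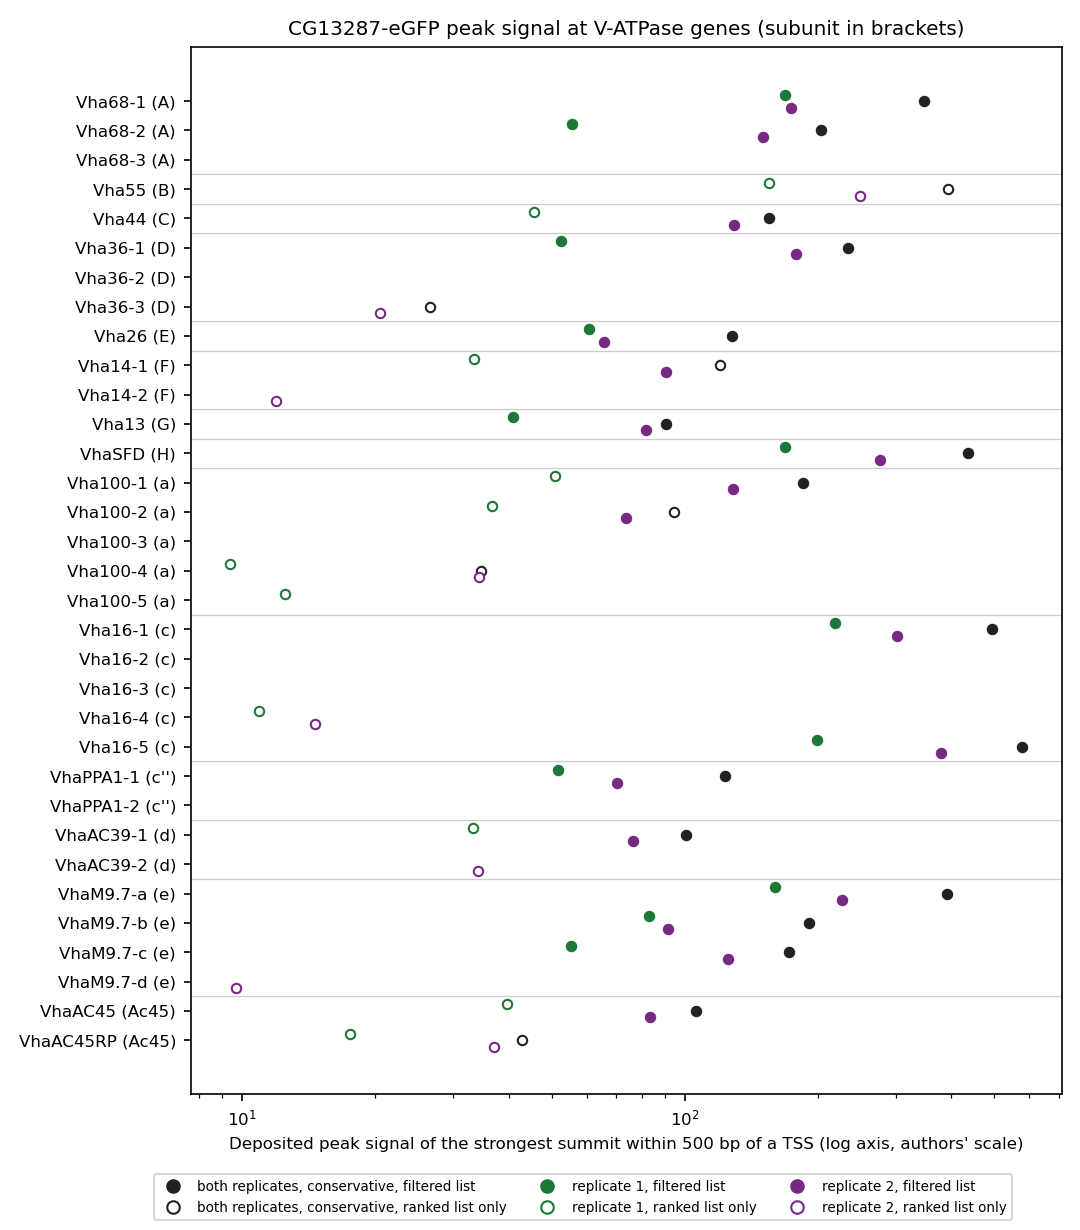
Deposited peak signal (log axis) of the strongest summit within 500 bp of a TSS for each of the 33 V-ATPase genes, grouped by subunit; black is the conservative list of both replicates, green replicate 1 and purple replicate 2. Filled points are in a filtered list and open points only in a ranked list; genes with no point had no entry, and Vha16-5 has the highest signal at 578.7.

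The A and B subunits form the hexamer of V1, in which A carries the catalytic sites. Vha68-1 (A) had a signal of 346.0 in the conservative list, 168.2 in replicate 1 and 173.4 in replicate 2. Vha68-2 (A), the copy with 5 annotated TSSs, had 203.4, with 55.5 in replicate 1 and 150.5 in replicate 2. At Vha68-1 these were different summits, at position -146 bp from the TSS in replicate 1 and at -281 bp in replicate 2, and replicate 1 had a further summit at -346 bp with a signal of 138.6. At Vha68-2 replicate 2 was well above replicate 1. Vha68-3, which starts 178 bp beyond the end of Vha68-2 on the same strand, had no entry in any list.

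Vha55 encodes subunit B alone, and its peak was in all 4 ranked lists but in 0 of the filtered lists. In the conservative ranked list it had the top score of 1000 and a signal of 392.9, with its summit 53 bp upstream of the TSS. The signal was 154.6 in replicate 1 and 248.7 in replicate 2, both with a score of 1000. By signal the ranked entry was higher than that of 66.1% of all bound genes. Its score was thus above the filter in every list, and score was not the only criterion of the filter. Of 6145 entries of the conservative ranked list with a score of at least 830, 190 (3.09%) were missing from the filtered list, 108 of them on arm 3R, where Vha55 lies. Vha55 was the 1 V-ATPase gene affected. The nearest peak kept in the filtered list, at a signal of 564.3, lay 2646 bp from the removed summit, near Not10. The reason for the removal is not given in the sources used here, and Vha55 was kept as unbound in all counts of the filtered lists. The 101 bases around its summit are shown because the deposited lists disagree there, a choice made after the values were seen.
Vha55 summit (chr3R:12627832-12627932, minus strand): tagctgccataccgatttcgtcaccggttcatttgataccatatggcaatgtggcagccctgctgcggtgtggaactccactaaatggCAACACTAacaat
The capitals mark a match to CANCNCTA, the form in which a promoter motif known as Ohler 7 was searched here. It was centred 41.5 bp downstream of the summit, and whether it acts as that motif was not tested.

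The D and F subunits make up the rotating shaft of V1. Vha36-1 (D) had 234.0 in the conservative list, 52.5 in replicate 1 and 178.2 in replicate 2, the widest ratio between replicates of the bound V-ATPase genes at 3.39. Its paralog Vha36-2 had no entry, and Vha36-3 had ranked entries alone, at 26.5 in the conservative list and 20.5 in replicate 2. Subunit F had no bound gene in the conservative list. Vha14-1 (F) was bound in the optimal list at 120.2 and in replicate 2 at 90.7, and had 33.4 in the ranked list of replicate 1. The same summit scored 136 in the conservative ranked list and 1000 in the optimal one. Vha14-2 had a single entry, at 11.9 in the ranked list of replicate 2.

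The E and G subunits form the peripheral stalks that hold V1 to V0, and C joins them to subunit a. Vha26 (E) had 127.5 in the conservative list, 60.6 in replicate 1 and 65.6 in replicate 2, and was bound in 3 of the 4 filtered lists, since its score was 818 in the optimal one. Vha13 (G) had the lowest signal of the bound V-ATPase genes, at 90.5, with 40.9 in replicate 1 and 81.6 in replicate 2. Vha44 (C) had 155.0 in the conservative list and 129.1 in replicate 2, and 45.7 in the ranked list of replicate 1. VhaSFD (H) had 435.2, with 168.2 in replicate 1 and 275.8 in replicate 2. Among the stalk and regulatory subunits, VhaSFD stood well above the other 3.

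Subunit a carries the half-channels for protons and directs the pump to particular membranes. It had 5 genes, of which Vha100-1, known for its role at neuronal synapses, was bound in the conservative list at 185.1 and in replicate 2 at 128.3. In replicate 1 it had 50.8 in the ranked list. Vha100-2 was bound in the optimal list at 68.6 and in replicate 2 at 73.7, but these were different summits. The optimal one lay at position -51 bp from the TSS. That of replicate 2 lay at -497 bp, barely inside the 500 bp limit. Replicate 2 had a further filtered summit at Vha100-2, 19 bp downstream of the TSS, with a signal of 39.0. The strongest neighbouring summit of Vha100-2 in the conservative list, at 142.2, lay 627 bp upstream and so just outside the 500 bp limit. Vha100-4 and Vha100-5 had ranked entries of at most 34.6 and 12.5, and Vha100-3 had none. Signals thus fell away along this family, with 1 of the 5 genes past the filter in the conservative list.

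The c ring showed the widest range. Vha16-5 had 578.7 in the conservative list, 198.7 in replicate 1 and 378.3 in replicate 2. Vha16-1, the gene for the broadly used c subunit, had 494.2, with 218.9 in replicate 1 and 302.1 in replicate 2. Vha16-5 was thus the higher of the pair in replicate 2 and the lower in replicate 1, so their order was not settled by the replicates. The other 3 genes of the family were far below, with Vha16-4 at 10.9 and 14.6 in the ranked lists of replicates 1 and 2, and Vha16-2 and Vha16-3 without an entry.

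Subunits c″ and d each had a pair of genes. VhaPPA1-1 encodes c″, a c-like subunit of the ring, and had 123.3 in the conservative list, 51.8 in replicate 1 and 70.4 in replicate 2. VhaPPA1-2, 2052 bp away on the same strand, had no entry. VhaAC39-1 encodes d, which couples the shaft to the ring, and had 100.8 in the conservative list and 76.2 in replicate 2, with 33.3 in the ranked list of replicate 1. VhaAC39-2 had 34.1 in the ranked list of replicate 2 and 36.0 in the optimal ranked list. The pairs for c″ and d therefore each had their first gene alone in the filtered lists.

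The small membrane protein e was the subunit with the most bound genes, 3 of 4. VhaM9.7-a had 390.6 in the conservative list, 160.2 in replicate 1 and 227.0 in replicate 2. VhaM9.7-b had 190.5, with 83.1 and 91.4 in replicates 1 and 2, and VhaM9.7-c had 171.8, with 55.2 and 125.3. VhaM9.7-a was above the other two in both replicates, and VhaM9.7-b and VhaM9.7-c changed order between them. VhaM9.7-d had a single entry, 9.7 in the ranked list of replicate 2.

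VhaAC45, an accessory glycoprotein needed for assembly and sorting of the pump, had 106.0 in the conservative list and 83.6 in replicate 2, with 39.6 in the ranked list of replicate 1. Its relative VhaAC45RP had ranked entries alone, at 42.9 in the conservative list, 17.5 in replicate 1 and 37.1 in replicate 2. A further accessory gene, ATP6AP2, no longer has a symbol starting with Vha and was not counted. It had 511.7 in the conservative list, 237.8 in replicate 1 and 273.5 in replicate 2, with its summit 51 bp upstream of the TSS.

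In all, 6 V-ATPase genes had no entry within 500 bp of a TSS in any of the 8 lists: Vha100-3, Vha16-2, Vha16-3, Vha36-2, Vha68-3 and VhaPPA1-2. Of all protein-coding genes, 29.7% had none. Each of the 6 belongs to a subunit that had a bound paralog.

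The bound V-ATPase genes were not among the strongest targets. Their median signal in the conservative list was 188 (quartiles 126 and 357), against 255 (153 and 513) over all 5565 bound protein-coding genes. Vha16-5 was above 79.0% of the bound genes, Vha16-1 above 73.6% and VhaSFD above 69.8%. Vha13 was above 2.86%, VhaAC39-1 above 5.80% and VhaAC45 above 7.91%. The V-ATPase genes thus ran from near the bottom of the range up to the place of Vha16-5, and 11 of the 16 lay below the median of all bound genes. The ratio of the signal in replicate 2 to that in replicate 1, taken from the ranked lists, was above 1 at all 16 genes, from 1.03 at Vha68-1 to 3.39 at Vha36-1, with a median of 1.95. Over 5522 bound genes with both values the median was 1.55 and the lower quartile 1.28, so most of those genes were above 1 as well. At 5 of the 16 genes, Vha44, Vha68-1, VhaAC39-1, VhaAC45 and VhaPPA1-1, the strongest summits of the replicates lay more than 100 bp apart and so may be different peaks. Without these 5, a choice made after seeing the data, the other 11 genes ran from 1.08 to 3.39 with a median of 1.90, against 1.53 over 4923 bound genes. The unit of signal relative to depth is not stated, so part of this ratio may belong to the libraries, which was not tested.

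**Figure D3:**
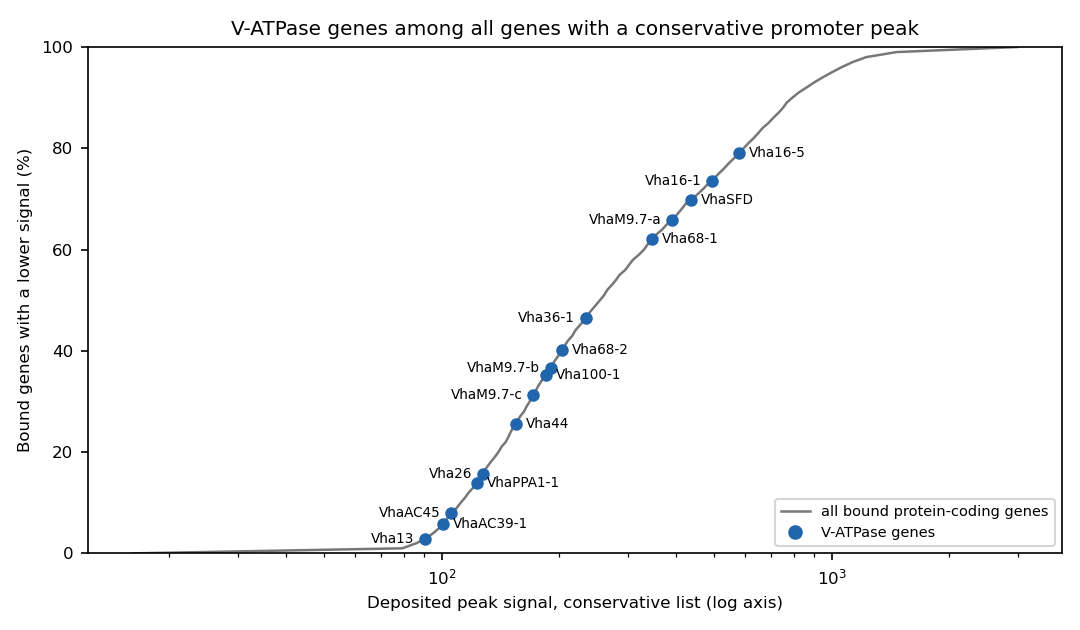
Share of bound protein-coding genes with a lower signal (%, vertical axis) against the deposited signal in the conservative list (log axis). The grey line is all bound genes and the points are the 16 bound V-ATPase genes, which run from 90.5 at Vha13 to 578.7 at Vha16-5.

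Position was measured from the nearest TSS of the gene to its strongest summit. The median was 79.0 bp upstream over the 16 bound V-ATPase genes and 60.0 bp upstream over all bound genes. The summit lay upstream at 12 of 16, against 80.2% of all bound genes. The farthest were Vha68-1 at 277 bp, Vha16-5 at 275 bp and VhaM9.7-b at 249 bp upstream, and these were inside the 500 bp limit by a wide margin. Vha13 at 157 bp, VhaAC39-1 at 65 bp, VhaAC45 at 63 bp and VhaM9.7-c at 20 bp had their summits downstream. Among weaker summits counted in the conservative list, one at Vha16-5 lay 478 bp upstream with a signal of 77.4, the nearest to the limit from inside. Among the genes without a conservative peak, the summit nearest to the limit from outside was that at Vha100-2, and the next, at VhaAC39-2, lay 1386 bp downstream, 68 bp from the TSS of unk.

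Some of these promoters are shared with a gene on the opposite strand. A protein-coding neighbour started within 500 bp in the divergent direction at 13 of the 33 V-ATPase genes, and at 3789 of the 13968 protein-coding genes. Of these 13, 9 (69.2%) were bound, against 7 of the other 20 (35.0%). Over all protein-coding genes the shares were 72.6% with such a neighbour and 27.7% without, so the V-ATPase genes followed the general difference. A peak between divergent starts is counted for both genes, and these peaks do not show which of the pair it belongs to.

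The summit was often closer to the neighbour. The own TSS was the nearest to the strongest summit at 8 of the 16 bound genes, against 74.0% of all bound genes. At Vha16-5 the summit lay 27 bp from the start of CG12299, and at Vha68-1 it lay 96 bp from the start of mTor, the kinase of the nutrient-sensing pathway that is activated on lysosomes. At Vha44 it lay 36 bp from Hmgs, which encodes an enzyme of the mevalonate pathway, and at Vha36-1 it lay 19 bp from CG8187. The others were Vha100-1 with dgt6 at 90 bp, VhaM9.7-a with CG11586 at 98 bp, Vha26 with noi at 115 bp and VhaM9.7-b with COX8 at 166 bp. VhaAC45 shares its upstream region with Gnptab, whose mammalian counterpart tags lysosomal enzymes, and there the own TSS was the nearer. Among the 4 genes with a divergent neighbour and no peak in the conservative list, Vha55 faces Snx3, Vha100-2 faces Vti1b, Vha14-1 faces CG30091 and Vha36-3 faces AANATL7.

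**Figure D4:**
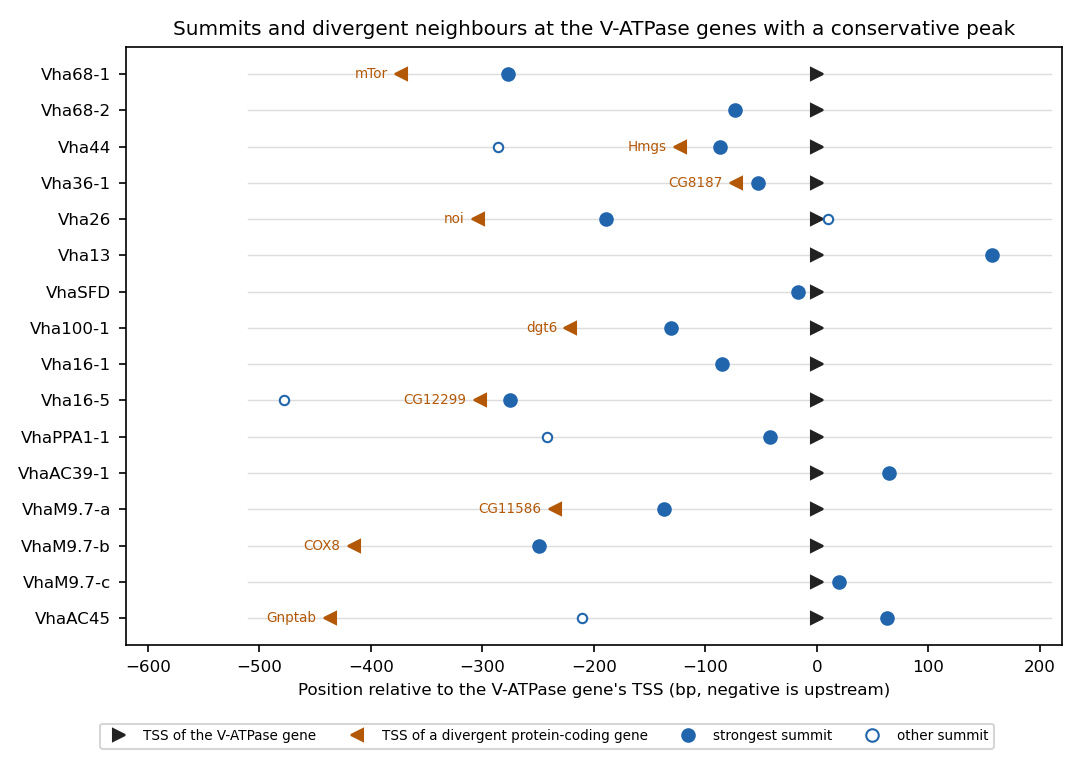
Position (bp) of the conservative summits relative to the TSS at each of the 16 bound V-ATPase genes, with the start of a divergent protein-coding neighbour where 1 lies within 500 bp. Filled circles are the strongest summits and open circles further summits; at 8 genes the strongest summit is closer to the neighbour than to the V-ATPase gene.

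Counting a gene as bound where its own TSS was the nearest to any of its summits left 9 of the 16 genes, namely Vha13, Vha16-1, Vha26, Vha68-2, VhaAC39-1, VhaAC45, VhaM9.7-c, VhaPPA1-1 and VhaSFD. This count was chosen after the data were seen. The share of all bound genes kept by this rule is not given here, so the 9 are not read as a result about the family. Vha26 remained through its weaker summit, 10 bp downstream of its TSS at a signal of 49.6. The count used the conservative list alone. VhaM9.7-b was not kept, but in the optimal list it had a second summit 2 bp downstream of its TSS, at a signal of 134.8. That summit scored 1000 in the optimal list and 770, below the filter, in the conservative ranked list. For 9 of the 14 subunits at least 1 gene was left.

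Conservative summits more than 500 bp into the gene were found at Vha16-1 and Vha13. Vha16-1 had summits 829 bp, 3647 bp and 3857 bp downstream of its nearest TSS, with signals of 108.9, 37.5 and 87.3, inside a gene of 7849 bp. Vha13 had a summit 1253 bp downstream with a signal of 384.0, more than that at its own promoter, and 411 bp from the start of subdued. The bound V-ATPase genes had a median length of 2217 bp and 3.5 exons, and the other 17 had 1470 bp and 2.0 exons. Over all protein-coding genes the median lengths were 2939 bp for bound and 1758 bp for other genes.

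Motifs, 9 in number, were counted on both strands within 50 bp of each strongest summit and in the promoters of 300 bases. The DRE was searched as TATCGATA and, inside it, as the shorter core ATCGAT, so a match to the first is also counted for the second. An E-box was searched in the form CAGCTG. A second E-box was searched as CACGTG and, with the flanking bases typical of Mitf, as TCACGTGA, where again the longer match holds the shorter. The element bound by M1BP was searched as GGTCACAC and the one bound by Trl, the GAGA factor, as GAGAG. The Ohler 7 core was searched as CANCNCTA and the TATA box as TATAAA.

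The DRE core ATCGAT was found at 4 of the 16 summits, those of Vha36-1, Vha68-2, VhaAC39-1 and VhaSFD, against 26.7% of 5020 promoter summits. TATCGATA was found at VhaSFD alone, against 13.0%. The count for the core was close to its share of promoter summits at large. The M1BP element and the Ohler 7 core were found at 0 of the 16, against 5.26% and 9.72%. The Trl element was found at Vha44, against 13.2%. The letters TATAAA were found at Vha100-1, against 12.4%. They were centred 158.5 and 84.5 bp upstream of the first TSS of that gene, and whether they act as a TATA box was not tested.

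Of the V-ATPase summits, that of Vha44 alone had matches to the E-box forms searched. Other forms of the E-box were not searched. The form CAGCTG was found at Vha44 and at 10.9% of promoter summits. The second E-box CACGTG was found there and at 1.43%. The extended form was found there and at 4 of the 5020 promoter summits in all (0.0797%). Its TCACGTGA was centred 42.5 bp downstream of the summit and 44.5 bp upstream of the TSS. Mitf, the fly relative of the mammalian TFEB, is known to activate V-ATPase and lysosome genes through sites of this kind. In the promoters, TCACGTGA was found at 2 V-ATPase genes, Vha44 and Vha68-2, and at 28 of the 13968 protein-coding genes. CACGTG was found in the promoters of 5 V-ATPase genes, Vha44, Vha55, Vha68-2, VhaAC45RP and VhaM9.7-d, against 5.29% of genes. Of these 5, Vha44 and Vha68-2 were bound in the conservative list, where 39.8% of all protein-coding genes were bound.

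At Vha68-2 the TCACGTGA belongs to the promoter of the last of its 5 TSSs, which lies far from the summit of the peak. That promoter is shown for the match, chosen after the values were seen, with all 9 motifs in capitals.
Vha68-2 promoter (chr2L:12975152-12975451, plus strand): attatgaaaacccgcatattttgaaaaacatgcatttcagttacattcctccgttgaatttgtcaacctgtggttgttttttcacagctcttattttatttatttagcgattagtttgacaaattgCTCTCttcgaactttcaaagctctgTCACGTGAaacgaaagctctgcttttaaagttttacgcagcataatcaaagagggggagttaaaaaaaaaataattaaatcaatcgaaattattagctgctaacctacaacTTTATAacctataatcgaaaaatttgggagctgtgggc
The centre of TCACGTGA lay 95.5 bp upstream of that TSS and 1057.5 bp downstream of the summit. The conservative ranked list had a weak summit 34 bp upstream of that TSS, with a signal of 19.8 and a score of 520. Another, with a signal of 71.8 and a score of 661, lay 36 bp upstream of a different TSS of the gene. Both scores were below the filter.

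The core ATCGAT was found in the promoters of 10 of the 33 V-ATPase genes, and in those of 26.3% of all protein-coding genes. Of these 10, 7 were bound in the conservative list, where 39.8% of all protein-coding genes were bound. The bound share of all genes with the core is not given here, so the 7 are not read as a result about the motif. The bound genes were Vha13, Vha16-5, Vha26, Vha36-1, Vha68-2, VhaM9.7-a and VhaSFD. The other 3 were Vha55, VhaAC45RP and VhaPPA1-2. At Vha16-5 the match lay 61.5 bp downstream of the summit and so outside the window of 50 bp. The 101 bases around the summits had a median GC content of 43.1% at the V-ATPase genes and 42.6% over all promoter summits.

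Shares in a pair of related gene lists are given for comparison. The mitochondrial F-type ATP synthase, the other rotary ATPase, had 10 of its 16 genes bound (62.5%, 35.4 to 84.8) in the conservative list, with a median signal of 214. Among 21 genes for V-ATPase partners and the lysosome, 14 (66.7%, 43.0 to 85.4) were bound, with a median signal of 372. These included spin at 1246, a lysosomal transporter, Npc2a at 748, a sterol carrier, ClC-c at 557, a chloride channel family member, Rbcn-3A at 536, which is needed for acidification by the pump, and SkpA at 516, whose yeast counterpart belongs to the RAVE complex that assembles it. Mitf had an entry in 1 list, at 31.8 in the ranked list of replicate 2, and Trpml had none. Over all protein-coding genes 39.8% were bound, with a median signal of 255. That share lay inside the interval for the F-type genes and below the interval for the partner and lysosome list. The intervals of the 3 lists overlapped widely. The lists were chosen with earlier results known, and were not tested against each other or against all genes.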

How the data were processed

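Peak lists on dm6 were deposited for 2 biological replicates of 1 group. The deposited signal and score are as the authors' peak caller and IDR step gave them, and the summit is the deposited peak start plus offset. How signal relates to depth, how reads that map to more than 1 paralog were treated, and which aligner, caller and control scaling were used, is not given in the sources used here. Per the labels of the listing, the filtered lists also derive from a further file of unstated content.

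Summits on the arms were matched to TSSs of Ensembl BDGP6.54 (release 115), and sequences were read from the Release 6 genome with Python 3.11.15, numpy 2.4.6 and scipy 1.17.1. The matching was tested on simulated data. Intervals are Clopper-Pearson 95% intervals. The members and lists were chosen with earlier results of these data known. By rule, values were given for every gene of each subunit, and sequences for the 2 genes with the highest signal off arm 2R and the paralogs farthest apart; other sequences were chosen after seeing values. Alternatives tried were other lists, promoter distances of 200 and 1000 bp, peak overlap, peaks above the median signal, RefSeq TSSs, the own TSS nearest, and other motif settings.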

Additional observations from a re-analysis of the deposited data

How the results depend on the processing

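The main counts were 16 bound V-ATPase genes, 12 subunits with a bound gene and 4 summits with ATCGAT. With peaks above the median signal of the conservative list alone, 9 genes and 6 subunits were left. Where the member's own TSS had to be nearest to a summit, an alternative added after seeing the data, 9 genes were left. The share of all bound genes kept by that rule is not given here. With TATCGATA in place of its core, 1 summit was left. Without replicate 1 or without replicate 2, the counts ran from 12 to 18 genes, from 8 to 13 subunits and from 4 to 5 summits. Without replicate 2, Vha100-1, Vha44, VhaAC39-1 and VhaAC45 were lost, and 12 subunits against 8 is a change of 1.5 times. The other settings kept the counts within 1.5 times of the main ones. They were the optimal list, the ranked list, summits within 200 or 1000 bp, peak intervals over a TSS, RefSeq TSSs (added after seeing the data) and a motif window of 25 bp. No paired analysis was possible because the samples form 1 group. The depth behind the signals is unknown, so a gene without a peak was not detected in these lists and is not shown to be unbound.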
